A study of Mus musculus with 12 samples.

Results

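Splenic B cells cultured with a CpG oligodeoxynucleotide (ODN) of class C were compared with splenic B cells cultured with one of class A, gene by gene, with the level in untreated cells given beside each gene. The genes are the known genes above 1 FPKM (fragments per kilobase of transcript, scaled by the authors to the fragments mapped in each library) in at least 3 of the 6 CpG-A and CpG-C libraries. There were 10159 such genes among the 19682 known genes of the table, which holds 28019 entries that name a gene or a locus. The series measured RNA of mouse splenic B cells in 12 libraries, 3 for each of 4 groups, and the CpG-B group was used here only in the shared estimate of the spread. The mice were BALB/c, aged 42 to 49 days after birth. Their B cells were cultured for 24 h in RPMI-1640 with fetal bovine serum, with CpG-A or CpG-C at 1 µM in the treated groups and without an ODN in the control. Dose and time were therefore matched between the classes. The labels name the class of each ODN and no sequence, and the sources used here do not say how B cells were separated from other spleen cells. Nor do the labels say whether the 3 libraries of a group came from separate animals or cultures, so p-values measure the spread between libraries, which may be technical.

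CpG ODNs are short synthetic DNAs whose unmethylated CpG motifs engage Toll-like receptor 9 (TLR9), an endosomal receptor that signals through MyD88 to NF-kappaB and interferon regulatory factors. A class A ODN has a palindromic core with a phosphodiester backbone and phosphorothioate poly-G ends, and is best known for inducing type I interferon in plasmacytoid dendritic cells. A class C ODN is phosphorothioate throughout and carries a palindrome, and is known both for B cell activation and for interferon induction. B cells that respond to TLR9 ligands enter the cell cycle, change their metabolism, secrete cytokines and can differentiate into antibody-secreting cells.

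B cell genes were abundant in all libraries, with Cd79a, a chain of the B cell receptor complex, at a mean of 1109 FPKM with CpG-A, 1189 with CpG-C and 1620.0 in the control. The 10 B cell markers summed to 8886 to 9405 FPKM with CpG-A, 5859 to 7797 with CpG-C and 12075 to 12469 in the control, and 1 was higher and 4 were lower with CpG-C. The 1, Ms4a1 (CD20), was not called without CpG-A library 1 or 2 or CpG-C library 1 or 2. Markers of other cells were low, apart from Pecam1, which held most of the sum of the stromal list. The 6 stromal markers summed to 58.7 to 64.5 FPKM with CpG-A, 51.55 to 74.4 with CpG-C and 58.3 to 66.5 in the control. NK cell, neutrophil, and erythroid and platelet markers summed to at most 1.76, 1.3 and 2.96 FPKM in any treated library. Of 10 markers of monocytes and macrophages, Adgre1 and Itgam passed the filter and went opposite ways. Itgam (CD11b) was at 0.19 FPKM with CpG-A and 1.99 with CpG-C (control 0.0767, log2 1.33 ± 0.10, adjusted p = 4.14e-06). Adgre1 (F4/80) held most of the summed level of the list in CpG-A and control libraries, which was 12.4 to 13.2 FPKM with CpG-A, 2.68 to 4.11 with CpG-C and 9.76 to 10.5 in the control. Csf1r, Lyz2 and Cd14 were below 0.2 FPKM in every treated library. The list of 10 T cell markers summed to 4.51 to 5.92 FPKM with CpG-A and 0.80 to 1.81 with CpG-C, with Cd3e, Cd3d and Cd4 below 1 FPKM in every treated library. Cd3g and Cd5 of this list were above 1 FPKM in every CpG-A library and passed the filter through these libraries alone. Cd3g was at a mean of 1.23 FPKM with CpG-A and 0.333 with CpG-C (control 0.907), and Cd5 at 1.77 and 0.32 FPKM (control 1.96). The list of 8 dendritic cell markers summed to 3.41 to 4.18 and 8.11 to 15.5 FPKM, mostly Flt3 and Ccr9 with CpG-C. Zbtb46, Siglech and Cd209a of this list were lower in every CpG-C library than in any CpG-A library, with Zbtb46 at 1.12, 0.84 and 0.77 FPKM against 0.23, 0.17 and 0.33 FPKM, and Xcr1 was at 0 throughout. Depth, estimated from the spacing of low FPKM values, was 21.4 to 22.8 M fragments (M, mega) with CpG-A and 24.75 to 25.95 M with CpG-C. The third CpG-C library stood apart. Across the 10159 genes its log2 levels correlated with those of the other CpG-C libraries at 0.979, against 0.998 between these and 0.992 to 0.997 among CpG-A libraries. The first principal component of the 6 libraries, with 73.3% of the variance, separated the classes, and the second, with 18.6%, held CpG-C library 3 at 24.7 and CpG-C libraries 1 and 2 at -12.55 and -12.56. Unnamed loci, which the table lists apart from known genes, were tested in the same fit. Of 4993, 2.8% were higher and 40.1% lower with CpG-C, and their median level was 0.24 to 0.42 FPKM in CpG-A, 0.05 to 0.06 in CpG-C and 1.15 to 2.37 in control libraries. The mean over 1292 olfactory and vomeronasal receptor genes had the same order. It was 0.034 to 0.061 FPKM in CpG-A, 0.0095 to 0.0147 in CpG-C and 0.153 to 0.251 in control libraries. Siglech, Cd209a and the T cell marker sum followed this order too, and a shared source was not tested.

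With CpG-C, 1617 of the 10159 known genes were higher than with CpG-A and 2392 were lower at an adjusted p under 0.05, by limma on log2(FPKM + 1) with Benjamini-Hochberg adjustment over 15853 entries. These are 15.9% and 23.5% of the genes, or 39.5% together, and 6150 genes did not pass. Every list count below is to be read against the 15.9% and 23.5%. At least 2-fold changes on the log2(FPKM + 1) scale were found for 281 genes higher (2.77%) and 187 lower (1.84%). Some genes passed the filter through 1 class alone. Of these, 134 were above 1 FPKM in the 3 CpG-C libraries and in 0 CpG-A libraries (126 called). Slc16a3, Vegfa, Eno2, Tm7sf2, Cox6a2, Itgam, Lrrc25, Smox and Il12rb1 were among them. Another 94 were so with the classes exchanged (88 called), Tgfb3, Fosb, Cxcr3, Cd3g and Cd5 among them. For such genes the filter itself favours a difference, so their share of calls is not a result. The median log2 change of all 10159 genes was -0.09, and 40.3% of the calls were higher. With median-of-ratios scaling between libraries the median was 0.03 and 61.1% of the calls were higher (2181 higher and 1391 lower), so the balance of higher against lower calls depends on the scaling and small changes are best read against these medians. Leaving out CpG-A library 1 gave 1206 higher and 1576 lower. The RNA is that of the whole culture, in which fewer cells of one kind and less RNA per cell cannot be told apart.

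**Figure D1:**
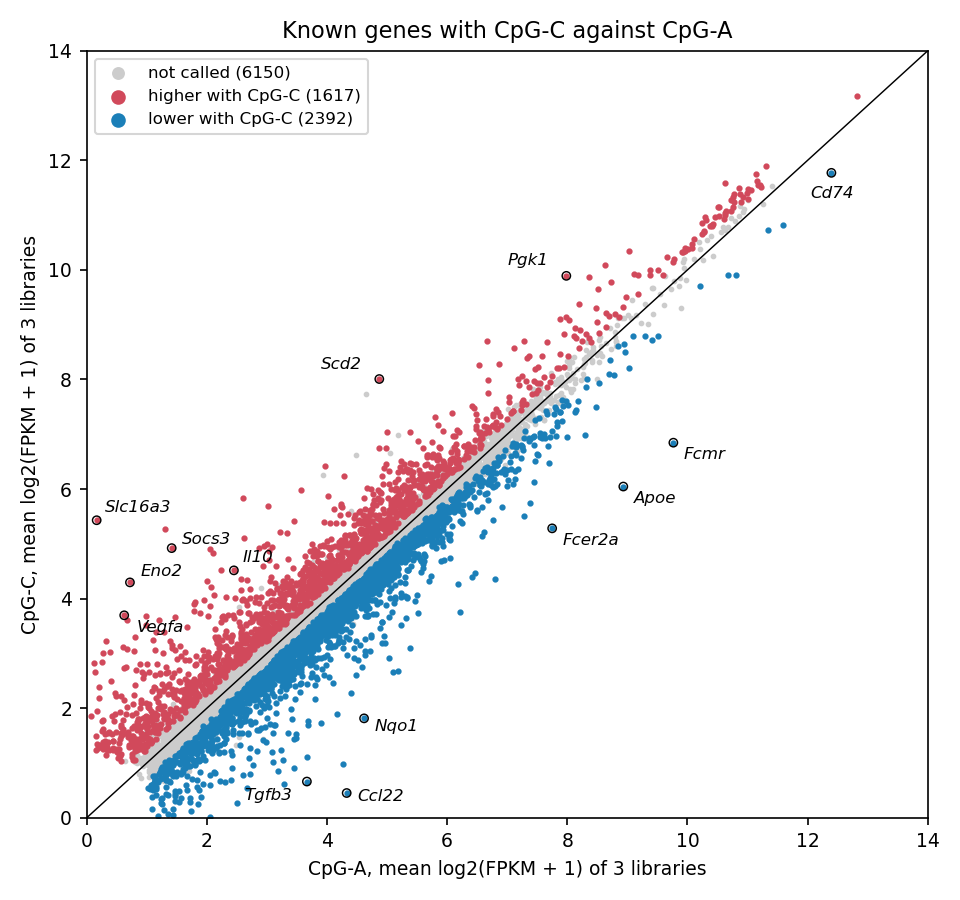
Mean log2(FPKM + 1) over 3 libraries of each of the 10159 known genes with CpG-A (x axis) and with CpG-C (y axis), coloured by the call. Most genes lie near the diagonal, and the 1617 higher and 2392 lower genes are drawn with the leading ones named.

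Genes of glycolysis and of the hypoxia response were higher with CpG-C as a group. The hypoxia response is the programme of the factor HIF-1, which raises glucose uptake, glycolytic enzymes and lactate export. Of 40 measured genes, 36 were higher, 28 of them at least 2-fold, 1 was lower and 3 did not pass, and the median log2 change was 1.12 against -0.09 over all genes. Slc16a3, the transporter MCT4 that exports lactate, was at 0.06, 0.14 and 0.17 FPKM in CpG-A libraries 1, 2 and 3, at 54.6, 54.1 and 25.3 FPKM in CpG-C libraries 1, 2 and 3, and at 0.163 ± 0.0416 FPKM in the control (SD, n = 3). This log2 change of 5.27 ± 0.24 (SE; limma, adjusted p = 8.63e-08) was the highest of the rule for named genes, and with CpG-A the gene stayed at the level of untreated cells. Per-library values below follow the same order of library numbers.

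Promoters of glycolysis and hypoxia genes are shown because the HIF-1 binding core, ACGTG, recurs in them. It was searched on both strands in the 250 bases before a start of the gene in RefSeq (GRCm38.p6). A gene counted if any of its windows held the letters, and 1 window is shown per gene. The Slc16a3 window lies inside the gene's deposited span, which begins at chr11:120948484. Of the list, 38 genes had such a window and 23 held the letters (60.5%), against 4998 of 27025 genes (18.5%) and 2160 of 8288 members with a window (26.1%). Among the list genes that were higher, 21 of 35 held them. A match is a description of the letters and not evidence of binding. Capitals mark ACGTG or its reverse complement. Each sequence reads 5′ to 3′ on the gene's strand and ends at the base before the start.

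Slc16a3, chr11:120948817-120949066, plus strand, matches beginning 27 and 14 bases before the start: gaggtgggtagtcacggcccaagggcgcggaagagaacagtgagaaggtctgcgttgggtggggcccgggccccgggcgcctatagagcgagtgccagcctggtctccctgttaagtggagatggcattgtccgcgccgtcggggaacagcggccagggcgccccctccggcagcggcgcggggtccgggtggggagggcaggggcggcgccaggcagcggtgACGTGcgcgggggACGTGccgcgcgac

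Ankrd37, chr8:45999851-46000100, minus strand, matches beginning 241 and 6 bases before the start: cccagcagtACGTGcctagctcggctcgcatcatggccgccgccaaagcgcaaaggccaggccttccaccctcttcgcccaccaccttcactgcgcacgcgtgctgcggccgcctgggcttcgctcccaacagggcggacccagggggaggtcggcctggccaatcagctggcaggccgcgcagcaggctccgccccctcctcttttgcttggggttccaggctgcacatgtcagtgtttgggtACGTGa

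Bnip3, chr7:138909507-138909756, minus strand, where overlapping matches on the opposite strands form a palindrome 108 bases before the start: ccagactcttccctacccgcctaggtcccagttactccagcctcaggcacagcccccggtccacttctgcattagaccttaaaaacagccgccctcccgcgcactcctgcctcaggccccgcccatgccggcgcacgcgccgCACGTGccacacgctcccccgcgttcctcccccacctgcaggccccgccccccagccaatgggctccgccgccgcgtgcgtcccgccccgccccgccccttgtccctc

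Ankrd37, an ankyrin-repeat protein known as a HIF-1 target, stood at 4.87, 5.05 and 5.22 FPKM with CpG-A and at 70.9, 67.1 and 37.5 FPKM with CpG-C (control 5.35 ± 0.604, log2 3.25 ± 0.20, adjusted p = 4.37e-07). Bnip3, a mitochondrial protein of mitophagy, stood at 6.82, 6.87 and 7.52 FPKM with CpG-A and at 74.3, 73.3 and 23.4 FPKM with CpG-C (control 9.45 ± 1.09, log2 2.67 ± 0.37, adjusted p = 0.00025). In both genes CpG-A was close to the control, every CpG-C library lay above every CpG-A library, and CpG-C library 3 was the lowest of its group. Vegfa, the vascular endothelial growth factor, had the same order, with 0.46, 0.59 and 0.58 FPKM against 13, 13.2 and 9.98 FPKM (control 0.677 ± 0.0777, log2 3.07 ± 0.21, adjusted p = 1.17e-06). Eno2, an enolase otherwise known from neurons, was at 0.70, 0.43 and 0.84 FPKM with CpG-A and at 30.5, 34.2 and 5.86 FPKM with CpG-C (control 0.207 ± 0.0551, log2 3.58 ± 0.54, adjusted p = 0.000472). Slc16a3, Vegfa and Eno2 passed the filter through the CpG-C libraries alone, so the filter itself favours their difference.

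For the glycolytic enzymes Pgk1 and Ldha, every library of both classes was above every control library. Pgk1, phosphoglycerate kinase, was at 253, 250.1 and 253 FPKM with CpG-A and at 1045, 1028 and 796 FPKM with CpG-C (control 86.2 ± 2.26, log2 1.91 ± 0.10, adjusted p = 1.08e-07). Ldha, lactate dehydrogenase A, was at 360, 384 and 347 FPKM with CpG-A and at 763, 756 and 913 FPKM with CpG-C (control mean 106 FPKM, log2 1.15 ± 0.10, adjusted p = 1.08e-05). Within CpG-C, library 3 was below both others in 35 of the 40 genes and above both in 5, Ldha among them. The median of the list over the mean of CpG-A was 1.31, 1.32 and 0.85 (log2) in CpG-C libraries 1, 2 and 3. Hif1a, which encodes the oxygen-regulated subunit of HIF-1 and is controlled mainly through protein stability, was the gene that was lower (26.1 against 20.8 FPKM, control 27.1, log2 -0.31 ± 0.10, adjusted p = 0.0269), a call lost without CpG-A library 1 or 3 or CpG-C library 1 or 2 (adjusted p 0.0624 to 0.0834) and with median-of-ratios or upper-quartile scaling. Ldha and Bnip3 were named after their values were seen, and reads of glycolytic enzymes can be shared with processed pseudogenes.

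**Figure D2:**
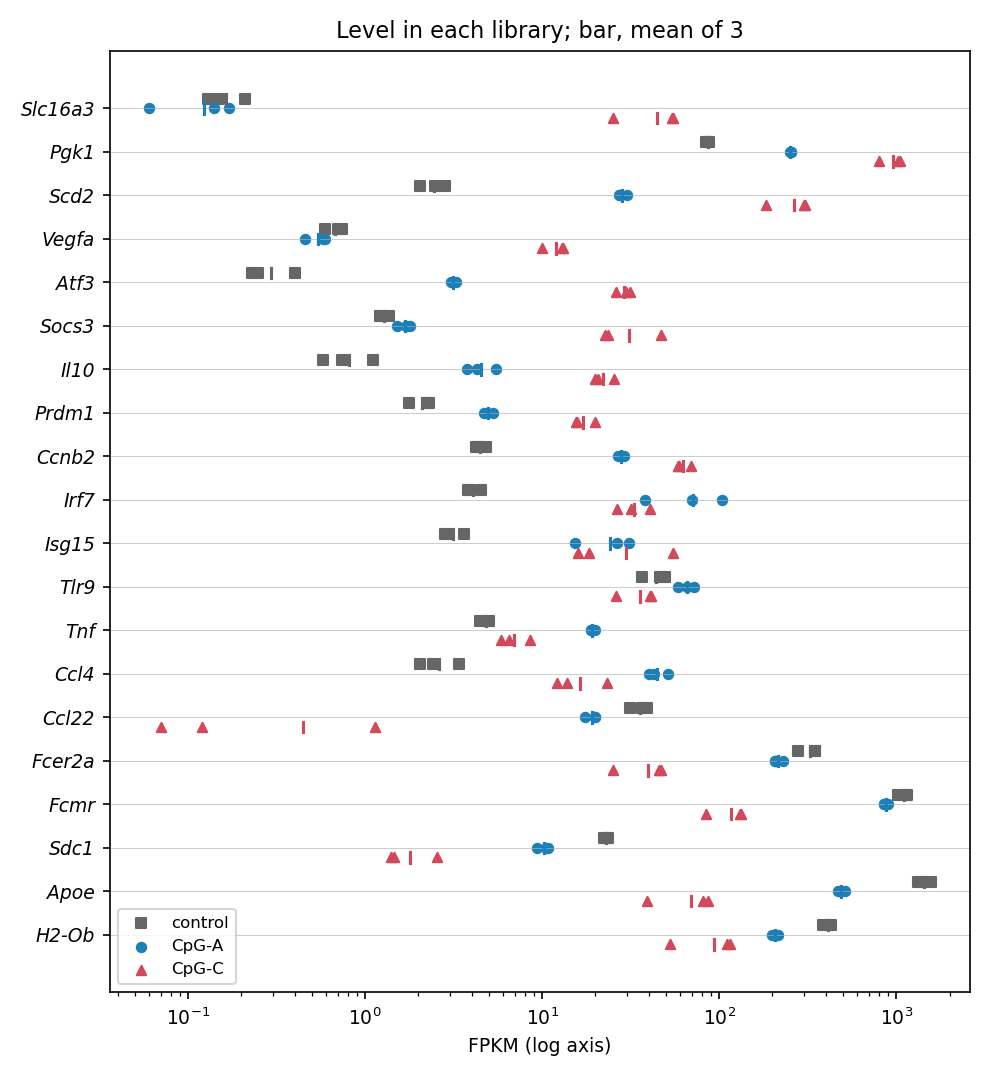
Level of 20 genes in every control, CpG-A and CpG-C library, in FPKM on a log axis, with a bar at each group's mean. The CpG-C libraries of Slc16a3 sit at 25.3 to 54.6 FPKM, apart from all other libraries, whereas those of Isg15 overlap the CpG-A libraries.

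Genes of sterol and fatty acid synthesis were also higher with CpG-C, without 1 called lower. These enzymes are targets of SREBP factors and make cholesterol and unsaturated fatty acids for new membrane. Of 37 measured, 29 were higher, 10 of them at least 2-fold, and 8 did not pass, and the median log2 change was 0.76. Without CpG-A library 1, or CpG-C library 1 or 2, 16 were called, and without CpG-A library 2, 19, with 0 lower each time. Scd2, a stearoyl-CoA desaturase that makes oleate, was at 27, 30.2 and 27.7 FPKM with CpG-A and at 302, 304 and 184 FPKM with CpG-C (control 2.45 ± 0.381, log2 3.14 ± 0.22, adjusted p = 1.87e-06). The control, CpG-A and CpG-C libraries of Scd2 thus formed 3 separate ranges. Tm7sf2, a sterol reductase of cholesterol synthesis, was listed at 0 in every control library, at 0.10, 0.32 and 0.20 FPKM with CpG-A and at 10.5, 8.46 and 3.77 FPKM with CpG-C (log2 2.74 ± 0.35, adjusted p = 0.000132). It passed the filter through the CpG-C libraries alone, so the filter itself favours its difference. As in glycolysis, 32 of the 37 genes had CpG-C library 3 below both others. The sterol response letters TCACNCCAC were searched on both strands of the promoter windows described above and stood in 1 of 26 list genes (3.85%), 1.22% of 27025 genes and 1.17% of 8288 members.

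Apoe, the apolipoprotein that carries exported cholesterol and a target of the LXR sterol receptors, moved the opposite way. It was at 513, 469 and 482 FPKM with CpG-A and at 81.4, 86 and 39.3 FPKM with CpG-C, against 1431 ± 122 FPKM in the control (log2 -2.89 ± 0.30, adjusted p = 3.18e-05). All CpG-C libraries were below all CpG-A libraries, which were below all control libraries. Abcg1, a cholesterol exporter and another LXR target, was higher, from 1.24 to 9.53 FPKM (control 1.47, log2 2.23 ± 0.20, adjusted p = 1.11e-05). Of the 9 measured genes of the LXR list 3 were higher, 2 were lower (1 without CpG-A library 1, 4 with TPM scaling) and 4 did not pass, so the list did not move 1 way.

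Of 27 genes of the amino acid response and its factor ATF4, 10 were higher, 0 were lower and 17 did not pass, and the median log2 change was 0.40. ATF4 is made when amino acids are short or the endoplasmic reticulum is stressed, and raises amino acid synthesis and transport. Chac1, a glutathione-degrading enzyme, was at 0.91, 1.08 and 0.93 FPKM with CpG-A and at 8.74, 9.46 and 19.5 FPKM with CpG-C (control 0.487 ± 0.196, log2 2.70 ± 0.44, adjusted p = 0.000757). Trib3, a pseudokinase that feeds back on ATF4, was at 1.14, 0.87 and 0.93 FPKM and at 8.85, 11.2 and 11.7 FPKM (control 1.73 ± 0.0929, log2 2.54 ± 0.27, adjusted p = 3.73e-05). Asns, asparagine synthetase and named after its values were seen, was at 8.53, 7.95 and 8.40 FPKM and at 28.5, 30.6 and 53.8 FPKM (control 1.39 ± 0.499, log2 2.0 ± 0.35, adjusted p = 0.00128). CpG-C library 3 was above both others in 25 of the 27 genes, and without CpG-A library 1 and CpG-C library 3 together, 6 were higher. With libraries weighted by their quality, 14 were higher and 7 lower.

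Asns is the textbook gene of the amino acid response element, and its promoter carries the letters TGATGNAA, searched on both strands in the same 250 bases. They stood in 6 of 22 list genes with a window (27.3%), in 3.91% of 27025 genes and in 2.39% of 8288 members. Capitals mark the match, which begins 23 bases before the start.

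Asns, chr6:7693210-7693459, minus strand: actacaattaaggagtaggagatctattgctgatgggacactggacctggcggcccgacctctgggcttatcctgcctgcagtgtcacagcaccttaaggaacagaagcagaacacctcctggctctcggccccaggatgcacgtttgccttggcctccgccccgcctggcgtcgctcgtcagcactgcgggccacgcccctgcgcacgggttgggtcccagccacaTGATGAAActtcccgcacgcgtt

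Atf3, a stress-induced factor of the ATF family that represses inflammatory genes, was at 3.25, 3.05 and 3.10 FPKM with CpG-A and at 31.2, 29.8 and 26.3 FPKM with CpG-C (control 0.293 ± 0.0929, log2 2.86 ± 0.13, adjusted p = 6.61e-08). The groups lay far apart, and CpG-C library 3 was close to the other libraries of its group. Cebpd, a C/EBP factor of acute responses, followed it, at 3.33 FPKM with CpG-A and 27.6 with CpG-C (control 0.657, log2 2.73 ± 0.13, adjusted p = 1.08e-07).

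Mitotic genes were higher with CpG-C. Of 41 genes of G2/M and mitosis, 38 were higher, 0 were lower and 3 did not pass, and the median log2 change was 0.71, and leaving out any 1 library gave 35 to 38. Ccnb2, a mitotic cyclin, was at 26.8, 28.8 and 27.9 FPKM with CpG-A and at 59.5, 58.5 and 69 FPKM with CpG-C (control 4.44 ± 0.301, log2 1.13 ± 0.10, adjusted p = 6.6e-06). Mki67, the proliferation antigen Ki-67, was at 34.5, 41.4 and 40 FPKM and at 61.9, 61.7 and 62.3 FPKM (control 4.68 ± 0.332, log2 0.67 ± 0.09, adjusted p = 0.000172). In both genes CpG-A was well above the control and CpG-C above CpG-A without overlap. Ube2c, the ubiquitin-conjugating enzyme of the anaphase-promoting complex and named after its values were seen, was at 66.9, 69.9 and 74.8 FPKM and at 115, 119 and 175 FPKM (control 9.28 ± 0.713, log2 0.91 ± 0.17, adjusted p = 0.00195).

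The Ube2c promoter is shown for the cell-cycle homology region TTTGAA, through which G2/M genes are known to be held down outside G2. Searched on both strands in the same window, the letters stood in 10 of 34 list genes (29.4%), in 18.3% of 27025 genes and in 13% of 8288 members. Capitals mark the match, on the opposite strand, 29 bases before the start.

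Ube2c, chr2:164769679-164769928, plus strand: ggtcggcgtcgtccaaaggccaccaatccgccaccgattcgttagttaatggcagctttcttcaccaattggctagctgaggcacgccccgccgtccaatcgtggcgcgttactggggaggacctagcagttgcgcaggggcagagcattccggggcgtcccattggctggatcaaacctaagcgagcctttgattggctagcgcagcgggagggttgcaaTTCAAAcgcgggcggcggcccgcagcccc

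Genes of DNA replication and G1/S did not share this difference. Of 42 measured, E2f2, Rpa3 and Clspn (the last named after its values were seen) were higher, 0 were lower and 39 did not pass. Among all known genes 15.9% were higher and 23.5% lower. The median log2 change of the list was 0.14. E2f2, a factor that drives S-phase genes, was at 24.2 FPKM with CpG-A and 43.1 with CpG-C (control 17.2, log2 0.80 ± 0.12, adjusted p = 0.000352). Mcm5, a subunit of the replicative helicase and an example chosen after its values were seen, was at 82.9, 86.7 and 80.7 FPKM with CpG-A and at 70, 69.6 and 122 FPKM with CpG-C (control 22.8, log2 0.01 ± 0.26, adjusted p = 0.973), with a 95% interval of the difference from -0.55 to 0.57. CpG-C libraries 1 and 2 were thus below and library 3 above all CpG-A libraries, and library 3 was above both others in 41 of the 42 genes. With median-of-ratios or upper-quartile scaling, 8 were higher, and with libraries weighted by their quality 9 were higher and 14 lower.

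Among 13 measured G1 cyclins and inhibitors of cyclin-dependent kinases, 8 were higher and 1 was lower. Cdkn2a, which encodes the inhibitors p16 and p19Arf from overlapping transcripts that this table does not separate, was at 1.01 FPKM with CpG-A and 6.14 with CpG-C (control 0.327, log2 1.81 ± 0.21, adjusted p = 6.82e-05). Cdkn1a, the p53-induced inhibitor p21, was at 2.86 and 7.35 FPKM (control 1.46, log2 1.12 ± 0.10, adjusted p = 9.99e-06). Rbl2, a pocket protein of resting cells, was the lower gene (17.6 and 13.4 FPKM, control 22.4, log2 -0.38 ± 0.12, adjusted p = 0.0267), a call lost without CpG-A library 1 or 2 or CpG-C library 3 (adjusted p 0.0694 to 0.0795) and with median-of-ratios or upper-quartile scaling.

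Genes of MYC and ribosome biogenesis were lower with CpG-C, but largely in 2 of its 3 libraries. MYC drives nucleolar genes and growth. Of 45 measured, 1 was higher, 24 were lower and 20 did not pass, and the median log2 change was -0.47. Over the mean of CpG-A the list's median was -0.66, -0.68 and -0.05 in CpG-C libraries 1, 2 and 3, and library 3 was above both others in 42 of the 45 genes. Without library 3, 36 were lower. Without CpG-C library 1 or 2, 6 were lower, without CpG-A library 1, 2 or 3, 9, 10 and 14, and with median-of-ratios scaling 7. Myc itself was at 61, 61.2 and 57.7 FPKM with CpG-A and at 34.4, 33.5 and 68.2 FPKM with CpG-C (control 15.2 ± 1.81), and the difference did not pass (log2 -0.47 ± 0.27, adjusted p = 0.162, 95% interval -1.06 to 0.11). CpG-C libraries 1 and 2 were below and library 3 above every CpG-A library, and without library 3 Myc was lower (log2 -0.80, adjusted p = 0.0164).

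Dkc1, the pseudouridine synthase dyskerin, was at 54.2, 54.6 and 60.1 FPKM with CpG-A and at 27.3, 25.5 and 48.1 FPKM with CpG-C (control 26.9 ± 2.21, log2 -0.78 ± 0.20, adjusted p = 0.0105). In CpG-C libraries 1 and 2 it stood at the control level. Mxd3, a MAX-binding partner of the MYC network, was the gene that was higher (4.52 and 11.5 FPKM, control 0.633, log2 1.19 ± 0.14, adjusted p = 6.82e-05). Odc1, ornithine decarboxylase, a MYC target that makes polyamines, was at 128, 120.3 and 133 FPKM with CpG-A and at 55.8, 54.8 and 93.6 FPKM with CpG-C (control 61.1, log2 -0.94 ± 0.18, adjusted p = 0.00235).

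Cytosolic ribosomal proteins went the other way. Of 78 measured, 54 were higher, 0 were lower and 24 did not pass, and the median log2 change was 0.40, and CpG-C libraries 1, 2 and 3 stood 0.38, 0.39 and 0.43 above the mean of CpG-A. With no filter on low values 33 were called. Rpl41, a protein of the large subunit, was at 1414, 1511 and 1866 FPKM with CpG-A and at 2795, 3077 and 3347 FPKM with CpG-C (control mean 1065 FPKM, log2 0.95 ± 0.17, adjusted p = 0.00158). Reads of ribosomal protein genes are shared with many processed pseudogenes, so single genes of this family are uncertain. Of 79 subunits of oxidative phosphorylation 17 were higher and 1 was lower (median 0.20), against 15.9% and 23.5% of all known genes. The 17 became 27 with median-of-ratios or upper-quartile scaling and 10 without CpG-A library 1 or 2, and without CpG-C library 3, 12 were higher and 4 lower. Cox6a2 and Cox7a1, cytochrome c oxidase subunits best known from muscle, led them. Cox6a2 was at 0.103 FPKM with CpG-A and 5.37 with CpG-C (control 0.14, log2 2.53 ± 0.12, adjusted p = 1.08e-07).

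**Figure D3:**
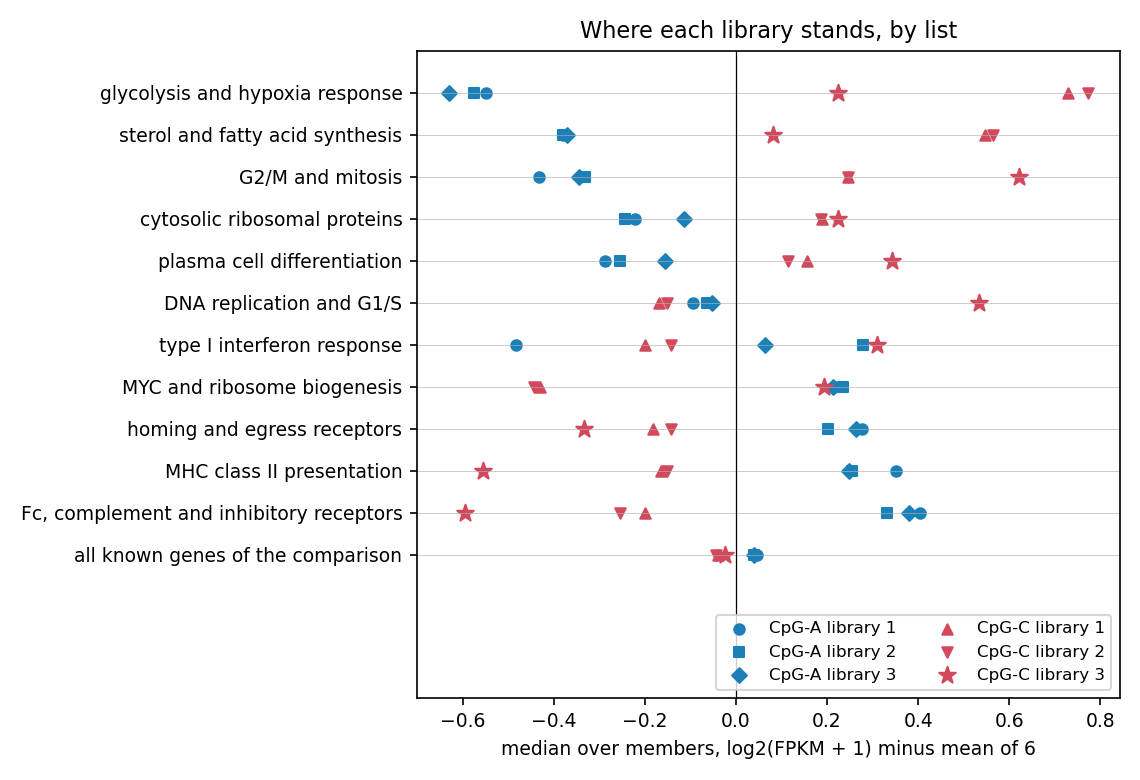
Median over the measured members of 11 lists in each CpG-A and CpG-C library, as log2(FPKM + 1) minus the mean of the 6 libraries. CpG-C library 3 stands beside the CpG-A libraries for MYC and ribosome biogenesis and above all others for G2/M and DNA replication, and CpG-A library 1 stands lowest for the interferon list.

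Batf, an AP-1 family factor of activated lymphocytes that takes part in class switching, was at 64.4, 59.3 and 56 FPKM with CpG-A and at 121, 121 and 159 FPKM with CpG-C (control 12.3 ± 1.34, log2 1.13 ± 0.15, adjusted p = 0.000204), without overlap. Of 22 measured genes of class switching and of the T-bet programme, 5 were higher and 3 were lower, against 15.9% and 23.5% of all known genes. With TPM scaling these were 4 and 7, and without CpG-C library 3, 5 and 5. Cxcr3, a chemokine receptor that T-bet induces, was among the lower genes (1.58 and 0.35 FPKM, control 0.73, log2 -0.94 ± 0.17, adjusted p = 0.00135).

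The plasma cell list had 10 of 21 measured genes higher, 5 lower and 6 not passing (median 0.49). Prdm1, which encodes BLIMP-1, the factor that imposes plasma cell fate, was at 4.70, 5.26 and 4.88 FPKM with CpG-A and at 15.5, 15.7 and 19.8 FPKM with CpG-C (control 2.11 ± 0.303, log2 1.59 ± 0.11, adjusted p = 1.17e-06). Sdc1, the plasma cell surface proteoglycan CD138, moved the opposite way, with 10.8, 9.35 and 10.5 FPKM against 1.45, 1.40 and 2.55 FPKM (control 23.1 ± 0.557, log2 -2.02 ± 0.17, adjusted p = 5.41e-06). Neither gene's libraries overlapped, and Sdc1 was highest in untreated cells. Irf4, a factor of both activated B cells and plasma cells, was lower by a small margin, with 70, 73.7 and 71.1 FPKM against 46.6, 45.2 and 66.2 FPKM (control 63.1 ± 0.82, log2 -0.46 ± 0.16, adjusted p = 0.0436). The Irf4 call was lost without any 1 of CpG-A libraries 1, 2 and 3 and CpG-C libraries 1 and 2 (adjusted p 0.0793 to 0.142) and with median-of-ratios or upper-quartile scaling. Jchain, the joining chain of IgM and IgA and chosen after its values were seen, was at 17.8, 20.4 and 22.7 FPKM and at 32.2, 29 and 113 FPKM (control 3.35 ± 0.987), which did not pass (log2 1.19 ± 0.57, adjusted p = 0.106, 95% interval -0.06 to 2.44). Among 47 genes of the endoplasmic reticulum and secretory pathway, 16 were higher and 2 were lower, led by Sec24d, a coat protein of export vesicles (4.28 and 8.81 FPKM, control 1.59, log2 0.88 ± 0.12, adjusted p = 0.000268). Without CpG-C library 3 these were 12 and 4, and with TPM scaling 12 and 5.

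**Figure D4:**
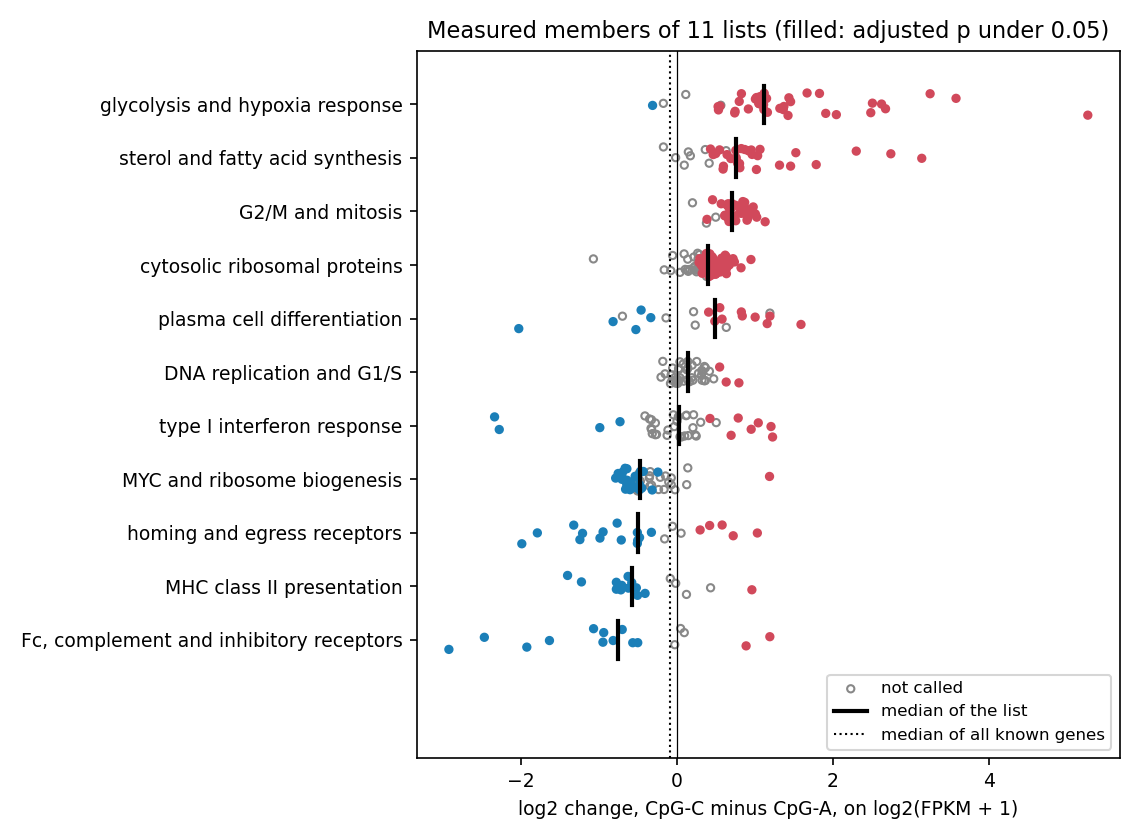
Log2 change (CpG-C minus CpG-A, on log2(FPKM + 1)) of each measured member of 11 lists, filled where the adjusted p was under 0.05, with each list's median and the median of all known genes. The medians run from 1.12 for glycolysis and hypoxia to -0.76 for Fc, complement and inhibitory receptors.

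Cytokines split by gene. Of 12 measured, 4 were higher, 5 were lower and 3 did not pass. Il10, the anti-inflammatory cytokine of regulatory B cells (chr1:131019845-131024970, plus strand), was at 3.77, 4.28 and 5.49 FPKM with CpG-A and at 19.8, 20.8 and 25.4 FPKM with CpG-C (control 0.81 ± 0.272, log2 2.07 ± 0.16, adjusted p = 3.01e-06). Il6, which promotes plasma cell survival, was at 1.65, 1.49 and 1.51 FPKM and at 4.03, 3.89 and 3.45 FPKM (control 0.103 ± 0.1, log2 0.91 ± 0.12, adjusted p = 0.000185). Both were lowest in the control and did not overlap between the classes. Tnf, an inflammatory cytokine, was lower, with 18.9, 18.8 and 20 FPKM against 6.48, 5.86 and 8.55 FPKM (control 4.8 ± 0.304, log2 -1.36 ± 0.17, adjusted p = 0.000108). Lta, lymphotoxin alpha, which shapes lymphoid tissue, was at 10.9, 9.29 and 9.77 FPKM with CpG-A and at 1.01, 0.84 and 0.79 FPKM with CpG-C (control 7.51 ± 0.846, log2 -2.55 ± 0.14, adjusted p = 1.84e-07). Every CpG-C library of Tnf was above every control library but nearer to the control than to CpG-A, while Lta with CpG-C was below its untreated level.

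Of 5 measured chemokines, 0 were higher, 4 were lower and 1 did not pass. Ccl22, which attracts CCR4-bearing T cells (chr8:94745684-94751388, plus strand), had the lowest log2 change of the rule for named genes. It was at 20, 17.5 and 19.9 FPKM with CpG-A and at 0.12, 0.07 and 1.14 FPKM with CpG-C, against 35.7 ± 4.05 FPKM in the control (log2 -3.88 ± 0.21, adjusted p = 1.84e-07). Ccl4, an inflammatory chemokine, was at 40.1, 42.7 and 51.1 FPKM and at 13.9, 12.1 and 23.1 FPKM (control 2.62 ± 0.694, log2 -1.44 ± 0.21, adjusted p = 0.000343). Ccl22 was thus highest in untreated cells and Ccl4 lowest there, and both were lower with CpG-C than with CpG-A in every library. Ccl3, a related inflammatory chemokine named here after its values were seen, was the 1 that did not pass (74.3 and 50 FPKM, control 4.54, log2 -0.58 ± 0.26, adjusted p = 0.0813, 95% interval -1.14 to -0.03 before adjustment).

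Interferon-response genes shared no common direction. Of 38 measured, 7 were higher, 4 were lower and 27 did not pass, against 15.9% higher and 23.5% lower among all known genes. The median log2 change was 0.03 against -0.09 over all genes. The counts rested on single libraries. Without CpG-A library 1, or without CpG-C library 3, 2 were higher and 8 lower, and without both of these 1 was higher and 18 lower. CpG-A library 1 was low in these genes, with a list median of -0.48 against the mean of the 6 libraries, where CpG-A libraries 2 and 3 were at 0.28 and 0.06. Irf7, the factor that amplifies interferon production, was at 38.2, 103 and 70.5 FPKM with CpG-A and at 26.6, 31.6 and 40.8 FPKM with CpG-C (control 4.06 ± 0.373, log2 -0.99 ± 0.28, adjusted p = 0.0164). The ranges of Irf7 overlapped, and the call was lost without CpG-A library 2 (adjusted p = 0.0616) or CpG-C library 1 (adjusted p = 0.0624). Isg15, the ubiquitin-like modifier that interferon induces, was at 15.2, 31.1 and 26.5 FPKM and at 15.9, 18.4 and 55.1 FPKM (control 3.12 ± 0.426), which did not pass (log2 0.12 ± 0.40, adjusted p = 0.816, 95% interval -0.74 to 0.98). Its direction reversed without CpG-A library 1 (log2 -0.17) and without CpG-C library 3 (log2 -0.42), and both classes were above the control in every library.

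Single interferon-response genes differed in opposite directions. Ifit3, an interferon-induced antiviral protein, was at 8.33, 26.4 and 21.6 FPKM with CpG-A and at 2.28, 2.46 and 3.50 FPKM with CpG-C (control 0.67 ± 0.26, log2 -2.27 ± 0.33, adjusted p = 0.000352), and its close copy Ifit3b, with which it can share reads, followed it (log2 -2.33 ± 0.28, adjusted p = 9.38e-05). Dhx58, which encodes the RNA sensor LGP2, was at 11.5, 23.2 and 17.3 FPKM and at 37.6, 38.2 and 46.1 FPKM (control 2.8 ± 0.79, log2 1.23 ± 0.21, adjusted p = 0.00104). Neither gene overlapped between the classes. Of 19 IRF and STAT factors 5 were higher and 9 lower. Without CpG-A library 1 these were 3 and 4, without CpG-A library 2, 3 and 5, without CpG-C library 2, 2 and 7, and with median-of-ratios or upper-quartile scaling 6 and 4. Irf5, which acts below TLR9 in inflammatory cytokine induction, was lower (111 and 65.2 FPKM, control 139, log2 -0.75 ± 0.07, adjusted p = 9.28e-06), and Stat3, the factor below IL-10 and IL-6 receptors, was higher (51.9 and 83.2 FPKM, control 43.6, log2 0.67 ± 0.08, adjusted p = 0.000103).

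Tlr9, the receptor of both ODNs, was at 66.2, 71.9 and 58.8 FPKM with CpG-A and at 40.7, 41.1 and 26 FPKM with CpG-C (control 44.2 ± 6.86, log2 -0.88 ± 0.27, adjusted p = 0.0239). Every CpG-C library was below every CpG-A library, yet the call was lost without CpG-A library 1 or 2 or CpG-C library 3 (adjusted p 0.0658 to 0.0779) and with no filter on low values. Tlr7, the related receptor of single-stranded RNA, was at 14.7, 25.3 and 22.5 FPKM and at 18, 17.6 and 25.8 FPKM (control 4.56 ± 0.719, log2 -0.01 ± 0.19, adjusted p = 0.963, 95% interval -0.44 to 0.41), with overlapping ranges and a sign that turned with the scaling. Irak3, an inhibitory kinase-like protein of TLR signalling, was at 8.34, 7.24 and 7.04 FPKM with CpG-A and at 30.1, 29.3 and 29.9 FPKM with CpG-C (control 10.3 ± 0.663, log2 1.85 ± 0.08, adjusted p = 4.32e-08). Of the 28 genes of this list 5 were higher, 6 were lower and 17 did not pass, shares near the 15.9% and 23.5% of all known genes. With TPM scaling 2 were higher and 9 lower, and without CpG-A library 2, 3 and 4.

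Among 18 measured feedback inhibitors, which act after NF-kappaB or cytokine signalling, 2 were at least 2-fold higher with CpG-C, Socs3 and Socs1. Socs3, which shuts off cytokine receptors that use STAT3, was at 1.80, 1.51 and 1.70 FPKM with CpG-A and at 22.8, 23.5 and 47 FPKM with CpG-C (control 1.27 ± 0.0839, log2 3.51 ± 0.29, adjusted p = 5.35e-06). CpG-A was near the control, and the lowest CpG-C library was above all others. Socs1, its relative that acts on interferon receptors, was at 3.36, 4.70 and 3.17 FPKM and at 9.19, 9.23 and 14.9 FPKM (control 1.62 ± 0.282, log2 1.33 ± 0.18, adjusted p = 0.000188). Of 18 feedback inhibitors 5 were higher and 6 lower, or 8 and 4 with median-of-ratios scaling, so the group as a whole was divided. Of 20 NF-kappaB subunits and inhibitors 5 were higher and 9 lower, or 5 and 4 with median-of-ratios scaling and 5 and 5 without CpG-A library 1 or 2 or CpG-C library 1.

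The atypical IκB proteins, which sit on NF-kappaB dimers in the nucleus, differed among themselves. Bcl3 was at 32.1, 31.3 and 28.3 FPKM with CpG-A and at 98.6, 108 and 114 FPKM with CpG-C (control 29.3 ± 3.83, log2 1.78 ± 0.12, adjusted p = 9.11e-07). Nfkbiz was at 40.4, 40 and 41.5 FPKM and at 145, 146 and 105 FPKM (control 18.7 ± 0.639, log2 1.66 ± 0.12, adjusted p = 1.87e-06). Nfkbid was lower, at 37.7, 34.1 and 30.6 FPKM and at 13.4, 13.9 and 17.8 FPKM (control 41.5 ± 0.856, log2 -1.13 ± 0.16, adjusted p = 0.000232). None of the 3 overlapped between the classes. Of 21 immediate-early and AP-1 factors 6 were higher and 9 lower, with Fosb among the lower (2.04 and 0.287 FPKM, control 23.3, log2 -1.21 ± 0.17, adjusted p = 0.000323).

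Most Fc, complement and inhibitory receptors were lower with CpG-C. Of 16 measured Fc, complement and inhibitory receptors, 2 were higher, 11 were lower and 3 did not pass, and the median log2 change was -0.76. Fcmr, the receptor for IgM, was at 897, 856 and 856 FPKM with CpG-A and at 132, 133 and 84.7 FPKM with CpG-C (control 1104 ± 66.1, log2 -2.92 ± 0.16, adjusted p = 1.61e-07). Fcer2a, the low-affinity IgE receptor CD23 of follicular B cells, was at 231, 206 and 206 FPKM and at 45.7, 47.2 and 25.2 FPKM (control 325 ± 40.3, log2 -2.47 ± 0.19, adjusted p = 3.44e-06). For both, CpG-A was nearer to the control than to CpG-C. CpG-C library 3 was below both other CpG-C libraries, as it was in all 16 genes of the list. Fcrl5, an Fc receptor-like protein of marginal zone B cells, was higher (37.7 and 88.9 FPKM, control 8.98, log2 1.19 ± 0.19, adjusted p = 0.000618).

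Homing and egress receptors had 5 of 22 measured genes higher, 14 lower and 3 not passing (median -0.50), with 3 higher under TPM scaling. S1pr1, the receptor that draws lymphocytes out of lymphoid organs, was at 90.9, 84.3 and 85.7 FPKM with CpG-A and at 25.1, 24.3 and 15.6 FPKM with CpG-C (control 257 ± 13.9, log2 -1.99 ± 0.17, adjusted p = 8.12e-06). Cxcr4, the receptor for CXCL12, was at 133, 117 and 110 FPKM and at 50.8, 52.5 and 46.8 FPKM (control 483 ± 60, log2 -1.24 ± 0.11, adjusted p = 6.96e-06). Both genes were highest in the control and lowest with CpG-C, with no overlap between any of these groups. Of 20 quiescence factors 1 was higher and 9 were lower, led by Klf3 and Klf2, factors of resting lymphocytes. Klf2 was at 102 FPKM with CpG-A and 55.6 with CpG-C (control 184, log2 -0.88 ± 0.17, adjusted p = 0.00196). The 1 and 9 became 0 and 5 without CpG-A library 1 or 3, 3 and 6 without CpG-C library 3, and 3 and 4 with median-of-ratios or upper-quartile scaling.

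Of 17 genes of MHC class II presentation, 1 was higher, 12 were lower and 4 did not pass, and the median log2 change was -0.58. The largest differences were in H2-Oa and H2-Ob, the chains of H2-O, which restrains peptide loading by H2-M. H2-Ob was at 214, 199 and 205 FPKM with CpG-A and at 116, 111 and 52.6 FPKM with CpG-C (control 411 ± 21, log2 -1.22 ± 0.28, adjusted p = 0.00615), and H2-Oa was at 97.1 and 38.9 FPKM (control 140.5 ± 12.4, log2 -1.40 ± 0.32, adjusted p = 0.00633). Cd74, the invariant chain, was at 5550, 5178 and 5446 FPKM and at 3867, 3902 and 2830 FPKM (control 7332 ± 88.6, log2 -0.62 ± 0.13, adjusted p = 0.00319), a call lost with no filter on low values (adjusted p = 0.0807). Lgmn, an endosomal protease that processes antigen, was the higher gene (26.4 and 52.3 FPKM, control 32.3, log2 0.96 ± 0.08, adjusted p = 5.81e-06). CpG-C library 3 was below both other CpG-C libraries in 15 of the 17 genes. Of 21 genes of MHC class I loading and the immunoproteasome 1 was higher and 8 were lower. The 8 became 2 with median-of-ratios scaling and 3 to 5 without any 1 of CpG-A libraries 1, 2 and 3 and CpG-C libraries 1 and 2.

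Activation and costimulation molecules were divided, with 11 of 31 higher and 9 lower. Cd69, an early activation antigen that retains lymphocytes in tissue, was at 17.8, 16.8 and 19.1 FPKM with CpG-A and at 49.3, 48.5 and 55.2 FPKM with CpG-C (control 27.3 ± 1.79, log2 1.46 ± 0.11, adjusted p = 2.22e-06). Ctla4, a checkpoint receptor best known from T cells, was at 2.54, 3.08 and 3.06 FPKM and at 9.96, 8.56 and 36 FPKM (control 0.40 ± 0.165, log2 2.02 ± 0.56, adjusted p = 0.0158), a call lost without CpG-A library 1 (adjusted p = 0.0513). Without CpG-C library 3, Ctla4 stood at log2 1.40 (adjusted p = 0.0487). The T cell markers summed to less in every CpG-C library than with CpG-A, as given above. Within CpG-C they summed to 0.99, 0.80 and 1.81 FPKM, highest in library 3. Cd28 was at 0.10, 0.06 and 0.61 FPKM there, and Cd5 at 0.35, 0.37 and 0.24 FPKM. A part of T cells in the Ctla4 level was not tested. Cd86, the costimulatory ligand of CD28, was lower, with 8.01, 9.67 and 9.30 FPKM against 4.42, 4.44 and 3.53 FPKM (control 8.54 ± 0.623, log2 -0.96 ± 0.12, adjusted p = 9.18e-05). Icosl, the ligand of ICOS, was at 85.5, 84.6 and 82.9 FPKM and at 25.5, 25.7 and 12.2 FPKM (control 124 ± 9.61, log2 -2.02 ± 0.24, adjusted p = 7.92e-05). Cd86 with CpG-A lay at the untreated level, and Icosl was highest in the control and lowest with CpG-C.

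Of 32 genes of B cell receptor signalling 5 were higher and 13 were lower, against 15.9% and 23.5% of all known genes. The 5 became 9 with median-of-ratios scaling, and 3 with TPM scaling or without any 1 of CpG-A libraries 1, 2 and 3 and CpG-C libraries 1 and 2. Among the lower genes were the Src-family kinases Lck and Blk. Lck was at 109, 108 and 106 FPKM with CpG-A and at 45.5, 43.4 and 38.1 FPKM with CpG-C (control 79.3 ± 4.87, log2 -1.33 ± 0.10, adjusted p = 2.89e-06). Blk, a kinase largely of B cells, was at 176 and 90.5 FPKM (control 247, log2 -0.95 ± 0.10, adjusted p = 4.83e-05). Both kinases were separated between the classes in every library. Of 30 B cell identity genes 8 were higher and 10 lower, led by Cd24a, heat-stable antigen, on the higher side (250.2 and 573 FPKM, control 179, log2 1.17 ± 0.13, adjusted p = 5.68e-05). The 8 were 4 or 5 without any 1 of CpG-A libraries 1 and 2 and CpG-C libraries 1 and 2, and 4 with TPM scaling.

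Of 14 anti-apoptotic genes 7 were higher and 1 was lower, or 4 and 0 without CpG-A library 1 or CpG-C library 1 and 5 and 3 with TPM scaling. The PIM kinases, which promote survival and growth, led them. Pim1 was at 28.6, 28.7 and 27.6 FPKM with CpG-A and at 88.6, 93.8 and 148 FPKM with CpG-C (control 21.7 ± 1.14, log2 1.88 ± 0.21, adjusted p = 4.95e-05). Pim2 was at 93.9, 91.3 and 90.4 FPKM and at 320.0, 333 and 269 FPKM (control 26.3 ± 1.8, log2 1.73 ± 0.09, adjusted p = 1.2e-07). Pim3 was the lower gene (12.4 and 7.86 FPKM, control 12.4, log2 -0.65 ± 0.19, adjusted p = 0.0199), a call lost without CpG-A library 1 or 2 or CpG-C library 1 or 2 (adjusted p 0.0522 to 0.0794) and with median-of-ratios scaling. Of 16 pro-apoptotic genes 6 were higher and 2 lower, or 5 and 1 without any 1 of CpG-A libraries 1 and 2 and CpG-C libraries 1 and 2. Bbc3, the BH3-only protein PUMA, was at 3.86 FPKM with CpG-A and 11.8 with CpG-C (control 4.95, log2 1.40 ± 0.12, adjusted p = 9.32e-06).

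**Figure D5:**
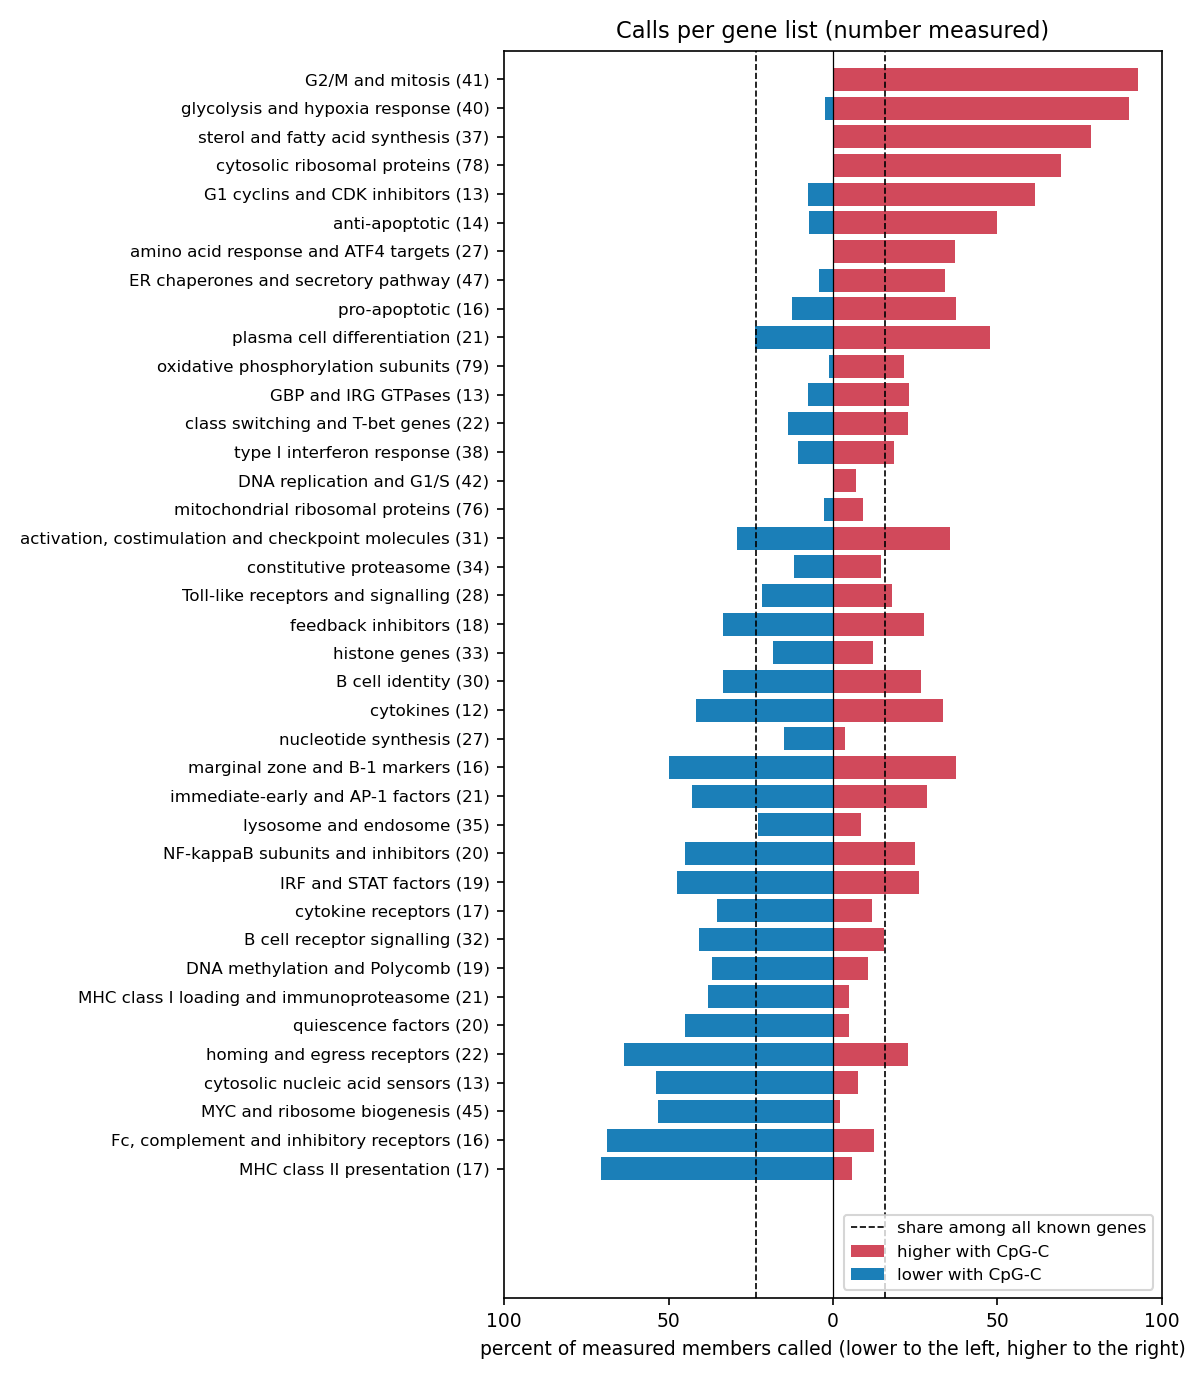
Percent of the measured members of each list with at least 12 measured members called lower (left) or higher (right) with CpG-C, with dashed lines at the 23.5% and 15.9% of all known genes. G2/M and mitosis has the highest share called higher, and MHC class II presentation the highest share called lower.

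Other genes among the 10 lowest log2 changes of the rule for named genes belong to no single process. Crisp3, a secreted cysteine-rich protein, was at 19.5, 16.8 and 18.8 FPKM with CpG-A and at 0.94, 1.13 and 0.87 FPKM with CpG-C (control 53.9 ± 1.95, log2 -3.29 ± 0.16, adjusted p = 1.02e-07). Tgfb3, a transforming growth factor beta, was at 13.2, 11.5 and 10.5 FPKM and at 0.65, 0.57 and 0.53 FPKM (control 28.1 ± 0.731, log2 -3.00 ± 0.09, adjusted p = 1.02e-08). Nqo1, a quinone reductase of the oxidative stress response, was at 23.6, 22.8 and 24.3 FPKM and at 4.63, 5.10 and 0.27 FPKM (control 9.5 ± 0.225, log2 -2.80 ± 0.48, adjusted p = 0.00105). Crisp3 and Tgfb3 were highest in untreated cells and Nqo1 with CpG-A, and no library of 1 class reached the range of the other. Adgre1, which leads the monocyte and macrophage markers described above, was at 11.9, 11.2 and 12.2 FPKM and at 1.68, 1.34 and 0.58 FPKM (control 6.51 ± 1.09, log2 -2.57 ± 0.20, adjusted p = 3.47e-06). Gm595, a predicted gene, was at 54.9, 42.8 and 18.4 FPKM with CpG-A and at 5.45, 3.77 and 7.64 FPKM with CpG-C (control 128 ± 67.3, log2 -2.49 ± 0.41, adjusted p = 0.000828), and its CpG-A levels had the order of the unnamed loci, whose part in it was not tested. Lrrc25, a leucine-rich repeat protein known from myeloid cells, was among the 10 highest (0.587 and 11.7 FPKM, control 0.683, log2 2.95 ± 0.26, adjusted p = 8.83e-06).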

How the data were processed

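The deposited table holds FPKM (fragments per kilobase of transcript, scaled to mapped fragments) computed by the authors, per the file headers, to 2 decimals, for 12 libraries of mouse splenic B cells. Per the submitters' processing notes, the tools were Bowtie2 2.2.5, RSEM 1.2.8, HISAT, StringTie and GATK and the build was mm10, with no role stated for any. The authors' log2 ratios, p-values and q-values per comparison, also deposited, come from a tool the sources used here do not name, and served only as an alternative. FPKM are not counts, so no count test was used.

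The table has 28021 entries, and the 2 without a gene name were dropped. Symbols that a spreadsheet had turned into dates (26) were restored from a RefSeq table of GRCm38.p6, which held 19635 of the 19682 known genes. Entries above 1 FPKM in at least 3 of 12 libraries (15853, of which 10860 known genes and 4993 unnamed loci) were fitted with limma 3.58.1 (trend method) in R 4.3.3 on log2(FPKM + 1), with 4 group means. The p-values were adjusted over all of them by the Benjamini-Hochberg method, and results are given for the 10159 genes of the comparison. A log2 change on this scale understates the change of low genes. At the median gene a 95% interval reached 0.243 (log2) to either side. Depth was estimated from the steps between low FPKM values, of which 93.8% to 95.7% lay within 0.2 of a whole fragment, at which 1 fragment on a transcript of 1 kilobase was worth 0.0385 to 0.0467 FPKM. No counts were recovered for testing. The code was tested on simulated data. Python 3.11.15, pandas 2.3.3 and matplotlib 3.10.9 made summaries and figures.

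Groups came from the treatment labels. Group levels are means with SD (n = 3), and log2 changes have their SE. Genes are named by a rule: the 10 highest and 10 lowest log2 changes among called genes averaging 10 FPKM or more in the higher class, with classes that do not overlap, the 2 largest called changes of each of 51 lists with the largest the other way, and 24 genes whatever their result, 131 in all, some of which are not reported here. Exceptions are named as such where they appear. The genes of the comparison, the lists and the rule were chosen with earlier results of these data known. Alternatives were the pseudocount (0.1 and 0.5), the filter (none, and 5 FPKM), the scaling (median-of-ratios, upper-quartile, TPM), the set of libraries or genes fitted, limma without a trend, with arrayWeights or with the replicate number as a block, and each library left out.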

Additional observations from a re-analysis of the deposited data

Results flagged for a closer look

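Outside the known genes, 140 of 4993 unnamed loci (2.8%) were higher with CpG-C than with CpG-A and 2004 (40.1%) were lower. Of the 140, 115 stood above every CpG-A and control library in every CpG-C library, whereas unnamed loci as a group were highest in the control. These 115 were singled out because they belong to no comparison of the report. The locus with the largest log2 change lay on chr14:105666305-105682646, plus strand (mm10), at 53.5, 68.9 and 61.3 FPKM with CpG-C, 24.1, 24.5 and 0.57 FPKM with CpG-A and 13.5, 1.96 and 1.90 FPKM in the control. Its log2 change was 2.63 ± 0.91 (limma, adjusted p = 0.0382), with CpG-A library 3 far below CpG-A libraries 1 and 2. What these loci are was not tested.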

How the results depend on the processing

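The counts of calls moved with the scaling, the weighting and the libraries. Against 1617 higher and 2392 lower genes, 1391 were lower with median-of-ratios and 1573 with upper-quartile scaling. With arrayWeights, which gives each library a weight, 2739 were higher and 4478 lower. Leaving out 1 library gave 1181 to 1623 higher and 1576 to 2459 lower, and the lowest count of lower genes came without CpG-A library 1. With a pseudocount of 0.1, 293 genes were at least 2-fold lower, against 187. At q under 0.05 the authors' deposited table had 3617 higher and 5636 lower, of which 424 and 319 were at least 2-fold. Among the named genes and these counts, Isg15 and Tlr7, neither of which passed, were the ones with reversed values. For Tlr7 (-0.01) they were 0.10 with median-of-ratios scaling, 0.071 with upper-quartile scaling, and between -0.23 and 0.14 with 1 library left out. For Isg15 (0.12) they were -0.53 with arrayWeights, -0.72 without CpG-A library 1 and CpG-C library 3, and between -0.42 and 0.44 with 1 library left out. The causes were not tested.

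Of 131 named genes, all kept their call with either pseudocount, with the 6 libraries alone and with the replicate block, and 14 lost it without CpG-A library 1 and 14 without CpG-A library 2. The replicate block gave 1739 higher and 2575 lower genes. The deviations of same-numbered libraries from their group means correlated at 0.128, -0.071 and 0.060, and 2 of 6 libraries correlated best with their own. Deviations of 3 libraries from their own mean are not independent. These values therefore cannot tell whether same-numbered libraries share an animal or a culture. Depth limits the statements on genes below about 1 FPKM, and 3 libraries a group, 1 of them apart from the others with CpG-C, limit the rest.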

Other observations

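Single chromatin, polyamine and receptor genes outside the groups described above also differed between CpG-C and CpG-A. H2afx, the histone variant marked at DNA breaks, was at 55 FPKM with CpG-A and 158 with CpG-C (control 24.6, log2 1.51 ± 0.12, adjusted p = 5.02e-06), while 4 of 33 histone genes were higher and 6 lower, shares below the 15.9% and 23.5% of all known genes, and reads of clustered histone genes can be shared. Of 19 genes of DNA methylation and Polycomb 2 were higher and 7 lower. Cbx7, a chromodomain subunit of Polycomb complexes, was at 14.5 and 5.14 FPKM (control 31.5, log2 -1.35 ± 0.13, adjusted p = 1.85e-05). Of 11 genes of polyamine synthesis 3 were higher and 1 was lower. These were 1 and 1 without CpG-A library 1 or 2 or CpG-C library 1 and with no filter on low values or the 6 libraries alone, 2 and 4 without CpG-C library 3, and 1 and 4 with TPM scaling. Smox, spermine oxidase, was higher (0.52 and 2.49 FPKM, control 0.833, log2 1.18 ± 0.13, adjusted p = 5.48e-05).

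Of 13 cytosolic nucleic acid sensors and their partners 1 was higher and 7 were lower, with a median log2 change of -0.26. Pycard, the inflammasome adaptor ASC, was higher (7.04 and 14.2 FPKM, control 4.27, log2 0.93 ± 0.10, adjusted p = 5.25e-05). Samhd1, which degrades deoxynucleotides, was lower (132 and 82 FPKM, control 164, log2 -0.68 ± 0.06, adjusted p = 9.99e-06). Of 17 cytokine receptors 2 were higher and 6 lower. Il27ra, the IL-27 receptor chain, was lower (18.2 and 7.62 FPKM, control 21.4, log2 -1.16 ± 0.11, adjusted p = 1.59e-05), and Il12rb1, a receptor chain for IL-12, was higher (0.813 and 2.39 FPKM, control 1.24, log2 0.90 ± 0.13, adjusted p = 0.000275). Flt3, a receptor kinase of progenitors and dendritic cells, was at 0.86, 1.05 and 0.67 FPKM with CpG-A and at 4.38, 4.79 and 10.2 FPKM with CpG-C (control 0.477, log2 1.93 ± 0.34, adjusted p = 0.00138).

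By mean level, 19.9% of 1209 genes under 3 FPKM were higher and 21.5% lower, and 14.7% and 25.3% of 2690 genes from 3 to 10 FPKM. These shares were 12.7% and 26.8% of 3533 genes from 10 to 30 FPKM, 17.6% and 19.6% of 2074 genes from 30 to 100 FPKM, and 26% and 15.3% of 653 genes at 100 FPKM or more. Calls in the higher direction outnumbered the lower in the last of these ranges alone, and the shares followed no steady order with level.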
